A study of Mus musculus with 8 samples.

Results

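Genes of the brain endothelium and the blood-brain barrier were followed as a set in brain lysates of mice labelled TNF-/- and TNF+/+. The set lists 35 genes known for endothelial junctions, endothelial receptors, barrier transport, leukocyte adhesion and endothelial identity. Of these, 33 had a probe set that pairs with 1 gene symbol and were measured, out of 19938 such genes on the array. Each of the 33 was represented by its single probe set. The 2 probe sets of Ly6c1 pair with several symbols, and Selp pairs with no probe set in the annotation used, so neither was analysed here.

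The mice were adult males aged 2 to 4 months. RNA came from frozen brains, and 4 biological replicates per label were each hybridised to their own Affymetrix Mouse Gene 1.0 ST array. The labels give TNF-/- as the genotype of one group and TNF+/+ C57BL/6 as that of the other, so the strain is named for the TNF+/+ mice only, and the labels list no treatment for either. They state neither the targeted allele nor the region of brain, and the study asked among other things about the function and permeability of the barrier. Values are the authors' log2 signals, and a difference is the mean of the arrays labelled TNF-/- minus that of the arrays labelled TNF+/+.

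Blood vessels of the brain are lined by endothelial cells that are joined by tight junctions, carry out little transcytosis and take up nutrients through dedicated transporters. Together with pericytes and astrocyte endfeet they form the blood-brain barrier. Tumour necrosis factor (TNF) is a cytokine that acts on endothelium, where it activates the transcription factor NF-kB and induces adhesion molecules that bind leukocytes. Endothelial cells are a minor cell type in a brain lysate, and several genes of the set are also transcribed in other brain cells. In such lysates fewer cells of a type and less RNA per cell cannot be told apart.

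Several properties of the series bear on every value below. Signal of Tnf itself went against the labels: it was 5.67, 5.87, 5.92 and 6.21 in the arrays labelled TNF-/- and 4.48, 4.93, 4.24 and 4.47 in those labelled TNF+/+ (limma, adjusted p = 0.0278). The groups do not overlap, and the adjusted p was 0.0321 to 0.114 with 1 array left out. Where the Tnf probes lie relative to the deleted part is not known from the labels, and a probe set outside that part checks nothing. Directions are therefore those of the arrays as labelled. TNF+/+ arrays 3 and 4 stood apart from the other 6 on the first principal component. TNF+/+ array 1 had a mean signal of 7.32 over 7 genes of cerebellar granule cells, against 5.52 to 5.70 in the other 7 arrays. Neuronal genes had high signals in all arrays (mean of 7 genes between 10.84 and 10.93), as brain tissue would give, but they do not tell the region. Of 9 measured endothelial markers 8 were at or above the signal of the median probe set (5.08). The mean of the 9 lay between 5.67 and 5.91 in all arrays.

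No gene of the set changed at an adjusted p under 0.05. Of the 33 genes 0 passed limma over all 35556 probe sets, where 29 did (0.0816%; 0.0366% higher and 0.0450% lower), and 0 passed Significance Analysis of Microarrays (SAM), the test named by the study, where 53 did (0.149%). An unadjusted p under 0.05 was found for 6 of the 33 genes, or 18.2%, against 10.8% of all probe sets. The share depended on the signal: it was reached by 4 of the 25 members at or above the median probe set, against 15.6% of all genes there, and 2 of the 8 dimmer members, against 7.17% of dimmer genes. Of these 6, 5 were lower in the arrays labelled TNF-/- (Slc7a5, Eng, Itm2a, Icam2 and Icam1; 15.2% against 4.90%) and 1 was higher (Vcam1; 5.92% of all probe sets). In 3 of the 33 the 4 arrays of each group did not overlap, which is 9.09% against 6.63% of all probe sets (at or above the median probe set, 2 of 25 members against 8.82% of genes). All 3 were lower in the arrays labelled TNF-/- (9.09% against 3.48%), and 0 were higher, as 3.15% of all probe sets were.

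The median difference of the 33 genes was -0.08, and 22 were lower and 11 higher in the arrays labelled TNF-/-, where 54.8% of all probe sets were lower and 45.2% higher. Over all 19938 genes the median was -0.01 and 52.2% were lower, but that share depended on the signal. Among genes at or above the median probe set 35.6% were lower, and among dimmer genes 71.3% were. Of the 25 members at or above that signal 15 were lower (60.0%), and of the 8 dimmer ones 7 were (87.5%). Without TNF+/+ arrays 3 and 4, 17 of the 33 were lower. The share of all genes lower in that setting was not computed. The shares above are those of all 8 arrays and do not serve as its background.

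**Figure D1:**
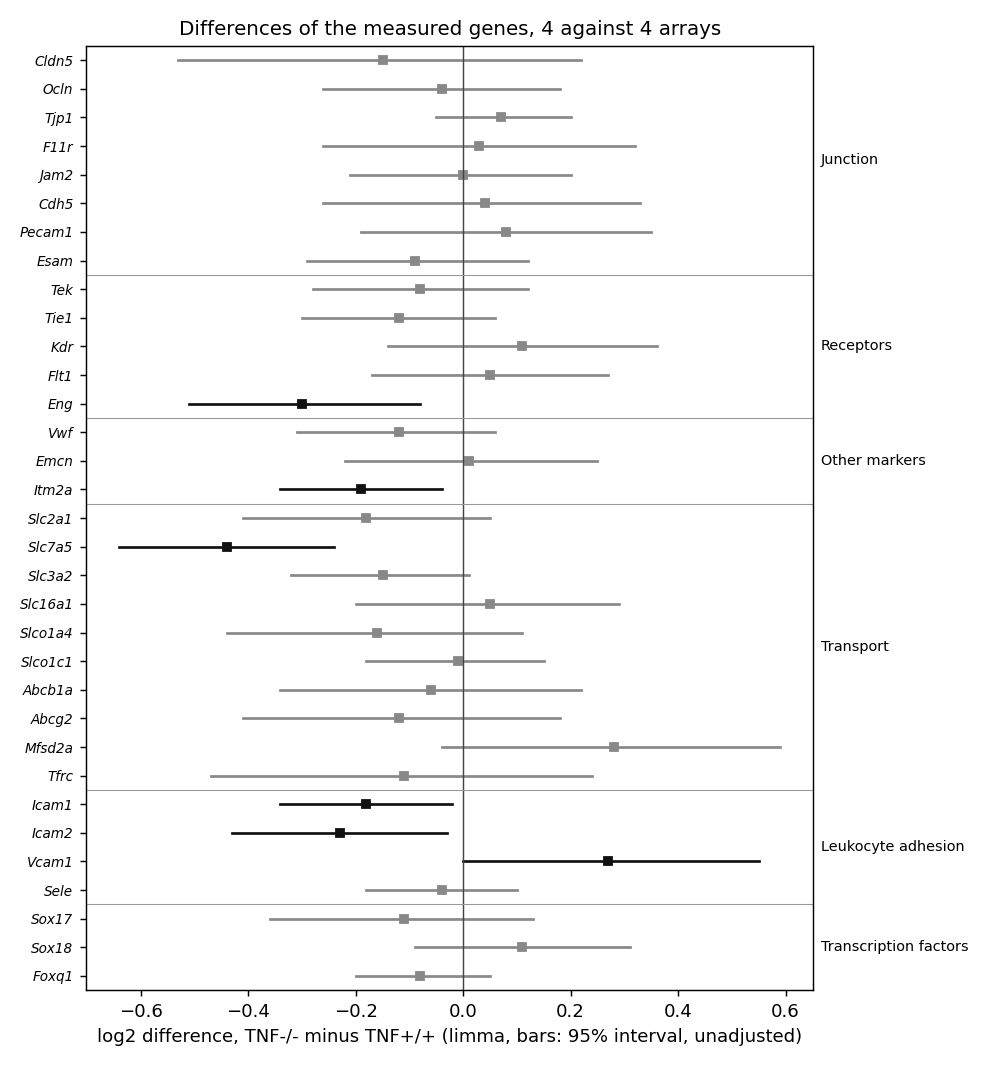
Difference in log2 signal between the arrays labelled TNF-/- and TNF+/+ for the 33 measured genes, ordered by role. Squares are limma estimates and bars their unadjusted 95% confidence intervals, drawn in black where the unadjusted p was under 0.05. Slc7a5 lies farthest from 0, at -0.44, and 27 of the 33 intervals include 0.

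The intervals show what the arrays could resolve. The 95% confidence interval of the difference lay within 0.5 of 0 on the log2 scale for 28 of the 33 genes. The other 5 were Cldn5, Eng, Slc7a5, Mfsd2a and Vcam1, whose intervals reached past that bound on one side. The median standard error was 0.10.

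Junction genes were compared first. Claudins and occludin seal the tight junction, the JAM family and Esam are immunoglobulin-like adhesion molecules of the junction, ZO-1 (Tjp1) links them to actin, and VE-cadherin (Cdh5) forms the adherens junction. None of the 8 genes reached an unadjusted p under 0.05, against 10.8% of all probe sets. Under the label TNF-/- 4 were lower and 4 higher (median difference 0.01).

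Cldn5 encodes claudin-5, the main claudin of brain endothelium. Its signal was 6.58, 6.39, 6.61 and 6.38 in the arrays labelled TNF-/- and 6.59, 6.28, 6.57 and 7.14 in those labelled TNF+/+. The groups overlap, and TNF+/+ array 4 alone lies above all others. The difference was -0.15 ± 0.16 (SE; 95% confidence interval -0.53 to 0.22; limma, adjusted p = 0.749), and it was 0.01 without TNF+/+ array 4 and -0.28 without TNF+/+ array 2. Cldn5 had the widest spread of the set, with a pooled SD of 0.27 within groups.

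Tjp1 had the narrowest spread beside Foxq1, with a pooled SD of 0.06. Its signal was 9.45, 9.42, 9.49 and 9.31 in the arrays labelled TNF-/- and 9.34, 9.30, 9.38 and 9.36 in those labelled TNF+/+. Although 3 of the 4 TNF-/- arrays lay above all TNF+/+ arrays, the difference was only 0.07 ± 0.06 (SE; limma, adjusted p = 0.653). Its 95% confidence interval ran from -0.05 to 0.20.

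Esam signal was 5.41, 5.42, 5.34 and 5.12 in the arrays labelled TNF-/- and 5.33, 5.32, 5.40 and 5.59 in those labelled TNF+/+. These values overlap, with the lowest in TNF-/- array 4 and the highest in TNF+/+ array 4. The difference was -0.09 ± 0.09 (SE; limma, adjusted p = 0.747).

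The remaining junction genes differed little. Occludin (Ocln) was at -0.04 ± 0.10 (SE), JAM-A (F11r) at 0.03 ± 0.13 and JAM-B (Jam2) at 0.00 ± 0.09, with adjusted p of 0.900, 0.946 and 0.991 (limma). Cdh5 was at 0.04 ± 0.13, and its lowest and highest signals, 5.04 and 5.72, both came from TNF+/+ arrays (1 and 3). Pecam1, which encodes the endothelial adhesion molecule CD31, was at 0.08 ± 0.12 (SE; limma, adjusted p = 0.824).

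Transporters followed. Glucose enters the brain through GLUT1 (Slc2a1), and large neutral amino acids cross through LAT1, a heterodimer of the light chain Slc7a5 and the heavy chain Slc3a2. Of 10 genes of transport 8 were lower and 2 higher under the label TNF-/- (median difference -0.12). All 10 had signals at or above that of the median probe set, where 35.6% of all genes were lower (median difference 0.05). An unadjusted p under 0.05 (limma) was found for 10.8% of all probe sets and for 15.6% of genes at or above that signal. Among the 10 transport genes such a p was found for 1, so that count did not stand out from the 10.8% and 15.6%.

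That gene was Slc7a5. Its signal was 8.15, 8.25, 8.14 and 8.08 in the arrays labelled TNF-/- and 8.44, 8.79, 8.66 and 8.47 in those labelled TNF+/+. All 4 TNF-/- arrays lie below all 4 TNF+/+ arrays, with 0.19 between the closest of them, the widest gap in the set. The means were 8.15 ± 0.07 and 8.59 ± 0.16 (SD, n = 4 each), a difference of -0.44 ± 0.09 (SE; 95% confidence interval -0.64 to -0.24). On a linear scale this is 73.8% of the TNF+/+ signal. It did not pass over all probe sets (limma, unadjusted p = 0.000833, adjusted p = 0.179), and with 1 array left out it ran from -0.49 to -0.37 with an adjusted p of 0.208 to 0.428.

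Slc3a2, which encodes the chain that brings LAT1 to the membrane and also pairs with other light chains, differed less. Its signal was 10.55, 10.39, 10.53 and 10.52 in the arrays labelled TNF-/- and 10.66, 10.51, 10.65 and 10.78 in those labelled TNF+/+. TNF+/+ array 2 overlaps the TNF-/- arrays, and the other 3 lie above them. The difference was -0.15 ± 0.07 (SE; limma, unadjusted p = 0.0611, adjusted p = 0.484). Within arrays, the log2 ratio of Slc7a5 to Slc3a2 signal averaged -2.34 ± 0.14 (SD, n = 4) under the label TNF-/- and -2.06 ± 0.26 under TNF+/+, and the arrays of the groups overlap.

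Slc2a1 signal was 9.44, 9.31, 9.67 and 9.54 in the arrays labelled TNF-/- and 9.62, 9.48, 9.82 and 9.75 in those labelled TNF+/+. The groups overlap, with 2 TNF-/- arrays below all TNF+/+ arrays. The difference was -0.18 ± 0.10 (SE; limma, adjusted p = 0.554), or -0.06 without TNF+/+ arrays 3 and 4.

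Mfsd2a ran the other way and is described after its values were seen. It encodes the carrier of lysophosphatidylcholine that brings docosahexaenoic acid into the brain and restrains transcytosis in barrier endothelium. Signals were 7.58, 7.26, 7.43 and 7.35 in the arrays labelled TNF-/- and 6.92, 7.09, 6.97 and 7.54 in those labelled TNF+/+. Only TNF+/+ array 4 overlaps the TNF-/- arrays. The difference was 0.28 ± 0.14 (SE; limma, unadjusted p = 0.0769, adjusted p = 0.505). It was 0.41 without TNF+/+ array 4 and 0.40 without TNF+/+ arrays 3 and 4 (limma, adjusted p = 0.389).

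Among the organic anion carriers Slco1a4 was at -0.16 ± 0.12 (SE) and Slco1c1, which carries thyroid hormone, at -0.01 ± 0.07. The efflux pump genes Abcb1a (P-glycoprotein) and Abcg2 were at -0.06 ± 0.12 and -0.12 ± 0.13. The monocarboxylate carrier gene Slc16a1 was at 0.05 ± 0.11 (limma, adjusted p of these 5 genes 0.643 to 0.957). Tfrc, which encodes the transferrin receptor, was at -0.11 ± 0.16 (SE; limma, adjusted p = 0.811). Its TNF-/- arrays gave 9.54, 9.66, 9.74 and 10.31, so that 3 lay below and 1 above all TNF+/+ arrays, and the difference was -0.28 without TNF-/- array 4 and -0.025 without TNF-/- array 1.

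Lists of markers of other cell types are given beside these values, and 0 of their genes passed at an adjusted p under 0.05 (limma). Oligodendrocyte genes were lower in 8 of 8 cases in the arrays labelled TNF-/-, with list means of 9.23 to 9.36 against 9.42 to 9.73. Choroid plexus genes were higher in 8 of 10 (5.90 to 6.06 against 5.75 to 6.03, which overlap), and meningeal fibroblast genes in 13 of 14 (6.20 to 6.29 against 6.00 to 6.16). Astrocyte genes were lower in 4 and higher in 4 cases, with overlapping list means of 9.60 to 9.82 and 9.65 to 9.76. Of all genes 35.6% were lower at or above the median probe set and 71.3% below it. Dimmer than that were 4 of the choroid plexus genes, 3 of the meningeal genes and 0 of the oligodendrocyte and astrocyte genes. Some barrier transporters are also transcribed in glia, neurons or the choroid plexus, and the part of these cell types in the transport values was not tested.

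**Figure D2:**
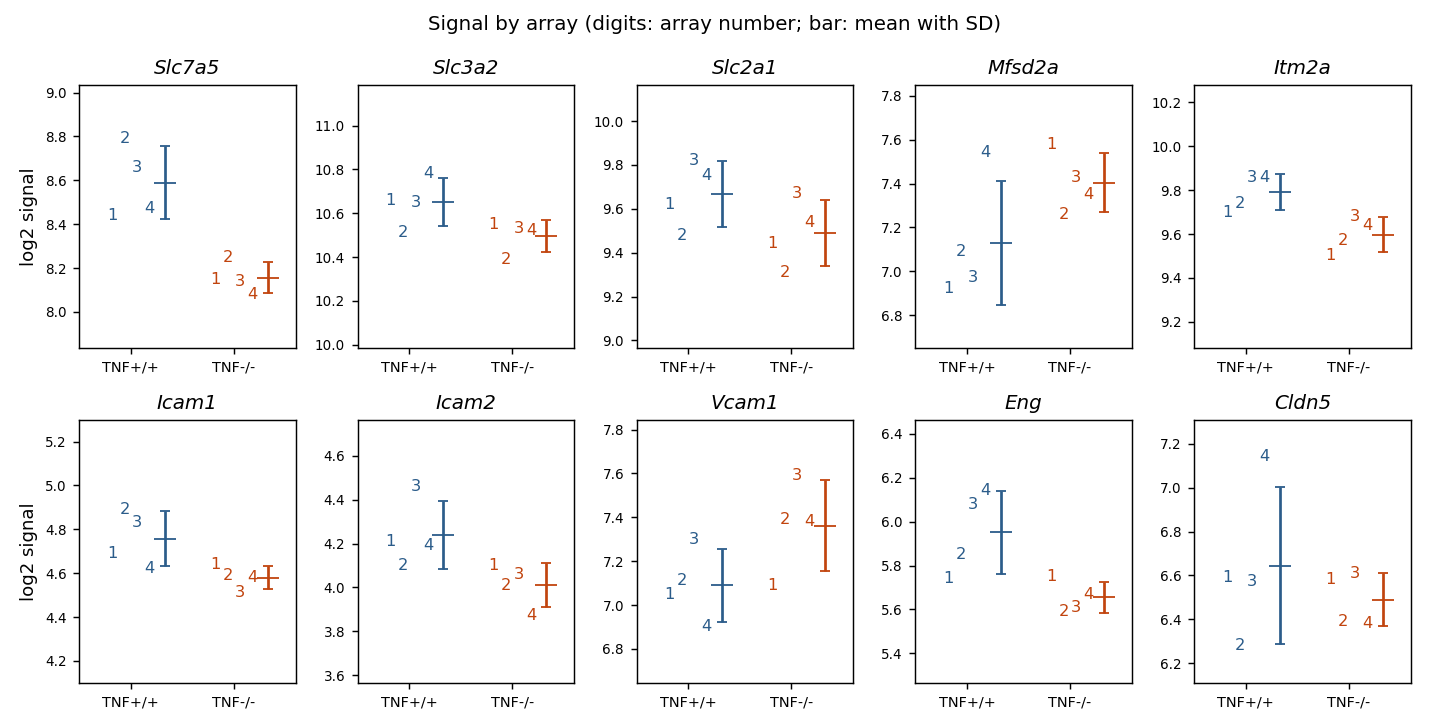
Log2 signal of 10 genes of the set in every array. Digits are array numbers within each label, bars are the mean with SD (n = 4), and each panel spans 1.2 log2 units. Slc7a5, Itm2a and, by 0.0045, Icam2 have no overlap between groups, while Cldn5 is set apart by TNF+/+ array 4 alone.

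Leukocyte adhesion genes differed in both directions, and none passed the adjusted test. Icam1 and Icam2 bind the leukocyte integrin LFA-1, Vcam1 binds VLA-4, and E-selectin (Sele) supports rolling. Of the 4 measured genes 3 were lower and 1 higher in the arrays labelled TNF-/-. An unadjusted p under 0.05 was found for 3 (Icam1, Icam2 and Vcam1), and for 10.8% of all probe sets. By signal that share was 7.17% of genes below the median probe set and 15.6% of genes at or above it.

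Icam1, Vcam1 and Sele are textbook targets of TNF through NF-kB. The 250 bases before the RefSeq start (GRCm38.p6) were therefore searched on both strands for each listed gene with an entry. Of the 35 listed genes 24 have an entry. Vcam1 and Icam2 are among those without one, so neither was searched. The 10-letter NF-kB consensus was found for 3 of these 24 (Abcg2, Flt1 and Kdr; 12.5%) and for 8.23% of all 27025 genes with an entry. It was in neither Icam1 nor Sele. A second pattern of 9 letters, GGANATTCC, was written from the Icam1 and Sele windows after they were read, so that its match in both follows from that choice and supports nothing. It is the rarer pattern, held by 0.955% of all genes with an entry, and it overlaps no consensus match in these windows. Both matches lie on the gene's strand and start 153 and 145 bases before the gene's start. The windows are shown in full since they are those of the adhesion genes with an entry and a signal here, at chr9:21015690-21015939 (plus strand) and chr1:164047984-164048233 (plus strand), with the 9 letters in capitals.
Icam1: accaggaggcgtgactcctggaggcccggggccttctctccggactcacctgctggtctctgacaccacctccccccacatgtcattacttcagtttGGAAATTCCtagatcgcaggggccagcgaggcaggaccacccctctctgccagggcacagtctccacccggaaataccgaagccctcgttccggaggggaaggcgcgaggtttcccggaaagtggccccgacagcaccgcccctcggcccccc
Sele: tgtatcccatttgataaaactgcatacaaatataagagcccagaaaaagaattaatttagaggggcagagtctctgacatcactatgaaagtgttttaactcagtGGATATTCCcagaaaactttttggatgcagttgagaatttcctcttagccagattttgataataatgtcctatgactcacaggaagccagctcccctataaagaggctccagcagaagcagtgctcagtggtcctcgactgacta
These matches describe the letters only, and no binding was measured.

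Icam1 signal was 4.64, 4.59, 4.51 and 4.58 in the arrays labelled TNF-/- and 4.69, 4.89, 4.83 and 4.62 in those labelled TNF+/+. The overlap is that of TNF-/- array 1 with TNF+/+ array 4, and the other 3 TNF-/- arrays lie below all TNF+/+ arrays. The difference was -0.18 ± 0.07 (SE; limma, unadjusted p = 0.0338, adjusted p = 0.427). It kept its sign with each array left out, from -0.22 to -0.14.

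Icam2, which is present on resting endothelium, gave 4.10, 4.01, 4.06 and 3.87 in the arrays labelled TNF-/- and 4.21, 4.10, 4.46 and 4.19 in those labelled TNF+/+. The groups do not overlap, but the closest arrays are only 0.0045 apart. The difference was -0.23 ± 0.09 (SE; limma, unadjusted p = 0.0303, adjusted p = 0.414) and it was -0.16 without TNF+/+ array 3.

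Vcam1 signal was 7.09, 7.39, 7.59 and 7.38 in the arrays labelled TNF-/- and 7.05, 7.11, 7.30 and 6.90 in those labelled TNF+/+. In this gene 3 TNF-/- arrays lie above all TNF+/+ arrays, and TNF-/- array 1 lies among them. The difference was 0.27 ± 0.12 (SE; limma, unadjusted p = 0.0490, adjusted p = 0.461), with a range of 0.20 to 0.37 when 1 array was left out. Within arrays, the log2 ratio of Vcam1 to Icam1 signal averaged 2.79 ± 0.26 (SD, n = 4) under TNF-/- and 2.33 ± 0.11 under TNF+/+. The groups overlap, with TNF-/- array 1 at 2.45 and TNF+/+ array 3 at 2.47.

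Sele ranged from 3.67 to 3.81 under the label TNF-/- and from 3.72 to 3.89 under TNF+/+. The difference was -0.04 ± 0.06 (SE; limma, adjusted p = 0.811). Icam1, Icam2 and Sele had signals below that of the median probe set (5.08), where 71.3% of genes were lower in the arrays labelled TNF-/-, while Vcam1 lay above it. Of 16 listed blood cell genes 8 were measured, and 6 of the 8 were lower, with list means of 3.83 to 3.96 against 3.95 to 4.10. Microglial and macrophage genes were lower in 7 of 9 cases (5.51 to 5.64 against 5.63 to 5.70). All 8 blood cell genes and 4 of the 9 microglial and macrophage genes were dimmer than the median probe set. Of all genes 71.3% of those dimmer were lower, against 35.6% of those at or above that signal. The part of these cells in the adhesion values was not tested.

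Endothelial receptors were compared next. Tie1 and Tek (TIE2) form the angiopoietin receptor system, Kdr and Flt1 are receptors of VEGF, and endoglin (Eng) is a coreceptor of the BMP and TGF-beta family. Of these 5 genes 3 were lower and 2 higher under the label TNF-/- (median difference -0.08).

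Eng signal was 5.75, 5.59, 5.61 and 5.67 in the arrays labelled TNF-/- and 5.74, 5.85, 6.08 and 6.14 in those labelled TNF+/+. The highest TNF-/- value just exceeds the lowest TNF+/+ value, and TNF+/+ arrays 3 and 4 hold the highest signals. The difference was -0.30 ± 0.10 (SE; limma, unadjusted p = 0.0134, adjusted p = 0.357). Without TNF+/+ arrays 3 and 4 it was -0.14.

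Tie1 signal was 5.06, 4.88, 5.02 and 4.96 in the arrays labelled TNF-/- and 5.15, 5.07, 4.94 and 5.25 in those labelled TNF+/+. Here TNF+/+ array 3 lies among the TNF-/- arrays. The difference was -0.12 ± 0.08 (SE; limma, adjusted p = 0.595). Tek was at -0.08 ± 0.09, Kdr at 0.11 ± 0.11 and Flt1 at 0.05 ± 0.10 (limma, adjusted p = 0.772, 0.736 and 0.868).

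Of the remaining markers, Itm2a encodes a type II membrane protein enriched in brain endothelium. It gave 9.50, 9.57, 9.68 and 9.64 in the arrays labelled TNF-/- and 9.70, 9.74, 9.86 and 9.86 in those labelled TNF+/+. There is no overlap, with 0.015 between the closest arrays. The difference was -0.19 ± 0.07 (SE; limma, unadjusted p = 0.0177, adjusted p = 0.372), and -0.12 without TNF+/+ arrays 3 and 4.

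Vwf, which encodes the clotting protein von Willebrand factor stored in endothelium, gave 4.78, 4.82, 4.72 and 4.65 in the arrays labelled TNF-/- and 4.76, 4.78, 5.07 and 4.85 in those labelled TNF+/+. These overlap, and the highest is TNF+/+ array 3. The difference was -0.12 ± 0.08 (SE; limma, adjusted p = 0.606), or -0.05 without that array. The sialomucin gene Emcn was at 0.01 ± 0.10 (SE; limma, adjusted p = 0.968).

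Transcription factors of endothelium had signals below the median probe set in 3 of 3 cases. Foxq1 gave 4.76, 4.79, 4.73 and 4.84 in the arrays labelled TNF-/- and 4.89, 4.75, 4.86 and 4.91 in those labelled TNF+/+. These overlap and differed by -0.08 ± 0.06 (SE; limma, adjusted p = 0.646). Sox18 gave 4.63, 5.01, 4.92 and 4.92 against 4.85, 4.73, 4.68 and 4.78, a difference of 0.11 ± 0.09 (SE; limma, adjusted p = 0.663). For Sox18, 3 TNF-/- arrays lie above and 1 below all TNF+/+ arrays. Sox17 was at -0.11 ± 0.11 (SE; limma, adjusted p = 0.717), with its lowest signal, 4.41, in the same TNF-/- array 1.

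**Figure D3:**
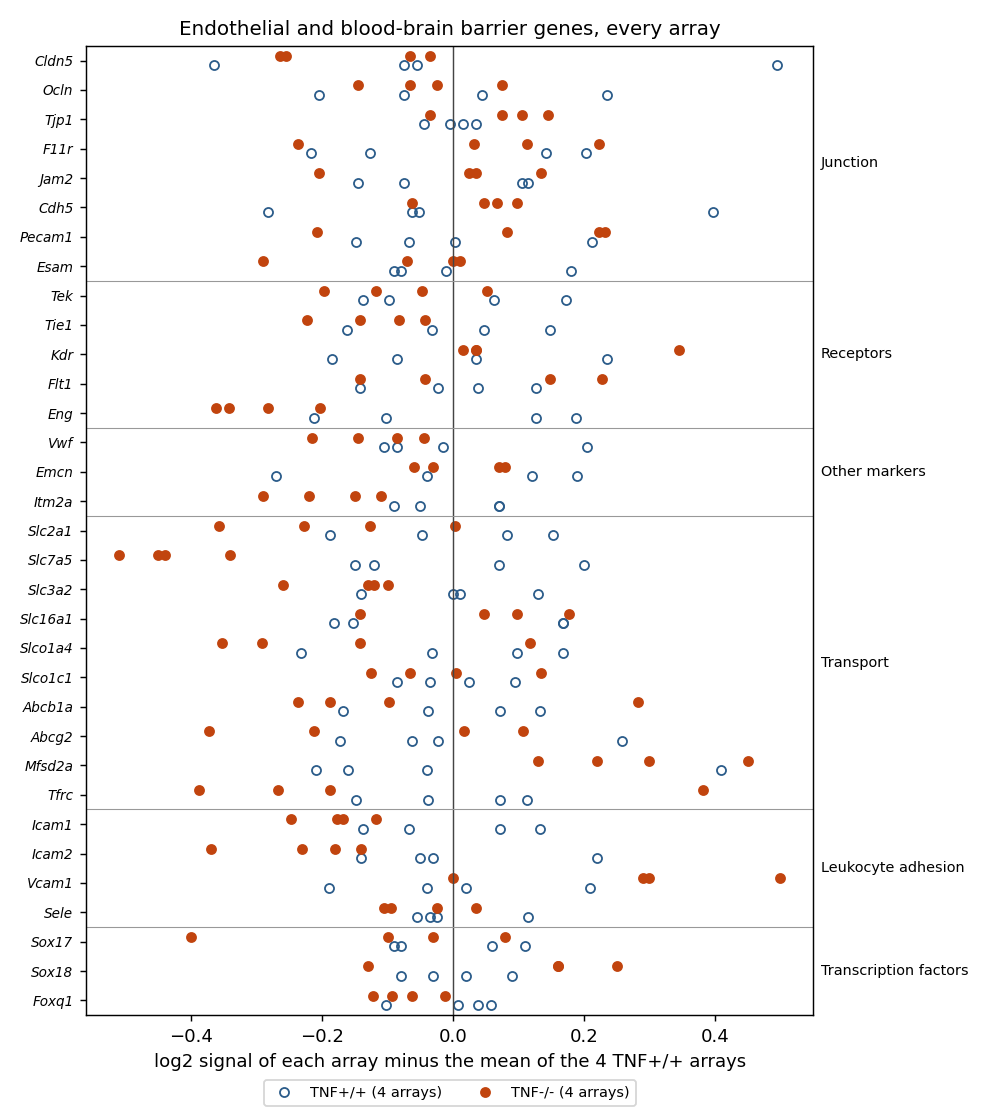
Signal of each array for the 33 genes, minus the mean of the 4 TNF+/+ arrays of that gene (log2 units). Filled points are arrays labelled TNF-/- and open points arrays labelled TNF+/+. Filled points lie apart from the open ones in Slc7a5 and just apart in Itm2a and Icam2, and overlap them elsewhere.

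Means over the genes of each role summarise the comparison per array. Junction means were 6.37 ± 0.08 (SD, n = 4) under the label TNF-/- and 6.38 ± 0.12 under TNF+/+. Transport means were 8.59 ± 0.11 and 8.68 ± 0.07, with TNF-/- arrays 1 and 2 lowest at 8.49 and 8.50. Leukocyte adhesion means were 4.92 ± 0.04 and 4.97 ± 0.09, in which the lower Icam1 and Icam2 and the higher Vcam1 partly offset each other. Receptor means were 5.87 ± 0.04 and 5.93 ± 0.11, those of the other markers 6.61 ± 0.03 and 6.71 ± 0.14, and those of the transcription factors 4.78 ± 0.12 and 4.81 ± 0.05. The groups overlap in every role. Nor did the transport genes part from the endothelial markers: the within-array difference of their means was 2.82 ± 0.10 under TNF-/- and 2.89 ± 0.07 under TNF+/+.

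**Figure D4:**
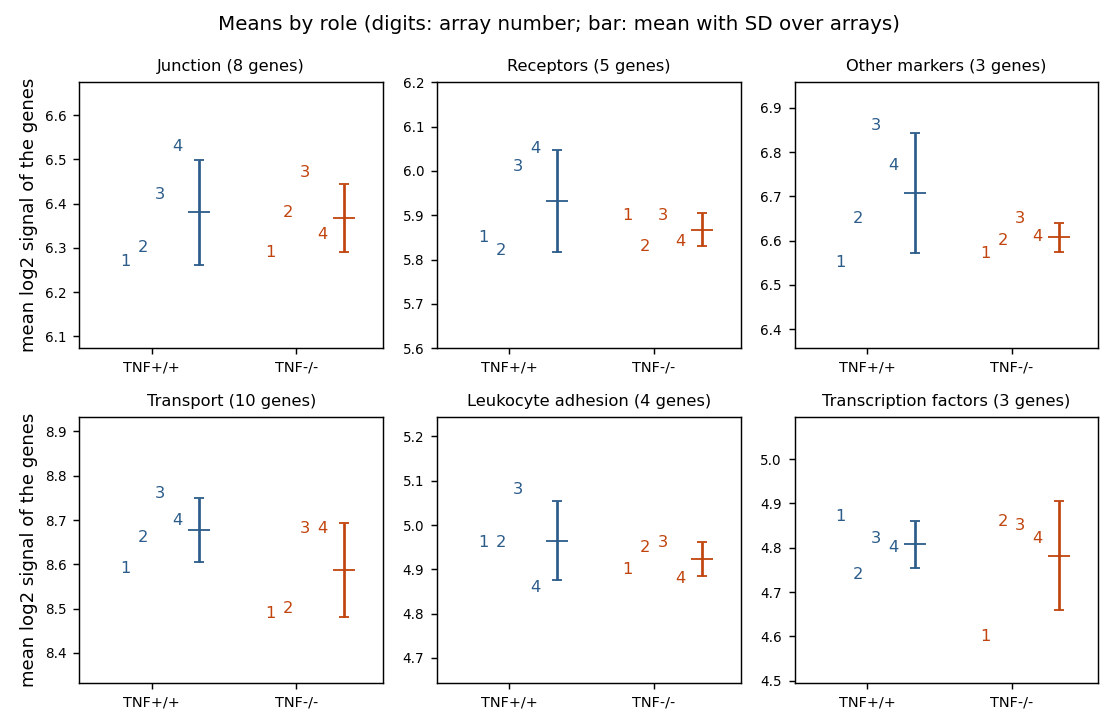
Mean log2 signal of the measured genes of each role in every array. Digits are array numbers and bars the mean with SD over 4 arrays, and each panel spans 0.6 log2 units. In the receptor and other-marker panels TNF+/+ arrays 3 and 4 lie above the remaining arrays of both labels.

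The arrays differed among themselves beyond the labels. TNF-/- array 1 had the lowest of the 8 signals for 11 of the 33 genes, while TNF+/+ arrays 3 and 4 had the highest for 9 and 8 and TNF-/- array 3 for 7. Within the TNF+/+ label, receptor means were 5.85 and 5.82 in arrays 1 and 2 and 6.01 and 6.05 in arrays 3 and 4, a step wider than the difference between labels (-0.07). The mean of 9 endothelial markers was 5.67 to 5.91 in the TNF+/+ arrays and 5.73 to 5.84 in the TNF-/- arrays, so that the TNF-/- range lay inside the TNF+/+ range.

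**Figure D5:**
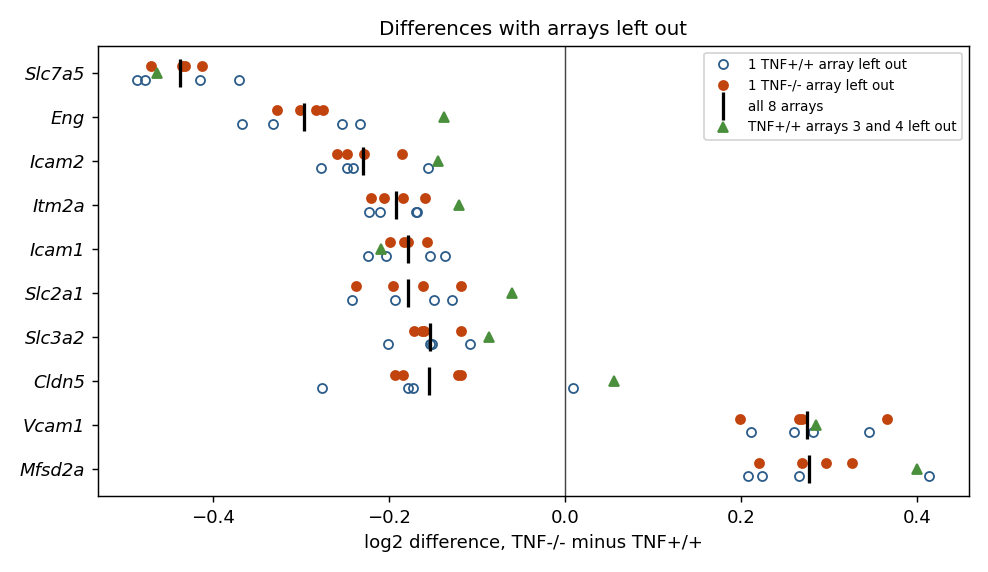
Difference in log2 signal of 10 genes with all 8 arrays (black bars), with each array left out in turn (circles) and without TNF+/+ arrays 3 and 4 (triangles). Slc7a5 stays between -0.49 and -0.37, whereas Cldn5 crosses 0 without TNF+/+ array 4.

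Without TNF+/+ arrays 3 and 4, 3 of the 33 genes had an unadjusted p under 0.05, Slc7a5 (-0.46), Mfsd2a (0.40) and Icam1 (-0.21; limma, adjusted p = 0.371, 0.389 and 0.475). Of all probe sets 5.17% were lower and 4.86% higher at that threshold. Eng, Itm2a and Icam2 were then at -0.14, -0.12 and -0.15. In 8 genes the 4 and 2 arrays did not overlap, against 20.7% of all probe sets.

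Further genes of the same biology were taken from lists beside the 35, and 0 of them passed limma at an adjusted p under 0.05 or SAM. Of 25 other transport genes of brain endothelium 12 were lower and 13 higher in the arrays labelled TNF-/- (median 0.03), and 3 had an unadjusted p under 0.05 (3 of 25, against 10.8% of all probe sets), all higher. Spock2, which encodes the proteoglycan testican-2, gave 10.51, 10.53, 10.54 and 10.56 against 10.13, 10.31, 10.28 and 10.25, with no overlap and a difference of 0.29 ± 0.05 (SE; limma, adjusted p = 0.151). The zinc importer gene Slc39a10 was at 0.27 ± 0.06 and the leptin receptor gene Lepr at 0.31 ± 0.09, again without overlap (limma, adjusted p = 0.206 and 0.286). All 3 are also transcribed outside endothelium. Plvap, which marks fenestrated vessels and is low in barrier vessels, was at 0.15, and the caveolin gene Cav1 at 0.06.

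Of 19 other junction genes 11 were lower and 8 higher, with a median of -0.02. An unadjusted p under 0.05 was found for 4 (21.1%, against 10.8% of all probe sets). Of the 19 genes 8 were dimmer than the median probe set. Among all genes 7.17% of those dimmer and 15.6% of those at or above that signal had such a p. The scaffold gene Magi1 was at 0.26 ± 0.07 (SE) without overlap, and Ctnna1, which encodes alpha-catenin, at 0.26 ± 0.08 (limma, adjusted p = 0.283 and 0.319). Cingulin (Cgn) was at -0.34 ± 0.11 and afadin (Afdn) at 0.18 ± 0.08.

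Of 29 other endothelial genes 25 were lower and 4 higher under the label TNF-/- (median -0.09). Of these genes 18 were dimmer than the median probe set and 16 of the 18 were lower (88.9%, against 71.3% of all dim genes). Of the 11 brighter ones 9 were lower (81.8%, against 35.6%). Unadjusted p was under 0.05 for 6 (20.7%, against 10.8% of all probe sets), of which 5 were lower: Ackr1, Egfl7, Slfn5, Adgrl4 and Gja5. The atypical chemokine receptor gene Ackr1, known in venules, red cell precursors and Purkinje cells, gave 7.17, 7.20, 6.99 and 7.00 against 7.49, 7.43, 7.49 and 7.32. These do not overlap, and the difference was -0.34 ± 0.07 (SE; limma, adjusted p = 0.202). Ets2 was higher, at 0.29 ± 0.09, without overlap (adjusted p = 0.358).

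Signals that build the barrier were near 0 as a list. Of 22 genes of Wnt and other barrier-forming signals 10 were lower and 12 higher (median 0.06). An unadjusted p under 0.05 was found for 1 (4.55%, against 10.8% of all probe sets). It was the norrin gene Ndp, at 0.18 ± 0.07 (SE; limma, adjusted p = 0.395). Ptch1, the hedgehog receptor gene, was at 0.24 ± 0.11. Of 23 ligands and partners of endothelial receptors 12 were lower and 11 higher (median -0.01), and 3 had an unadjusted p under 0.05 (13.0%, against 10.8% of all probe sets). They were Tgfb2 at 0.41 ± 0.10, with no overlap, Nrp1 at 0.34 ± 0.12 and Nrp2 at 0.14 ± 0.06 (limma, adjusted p = 0.247, 0.381 and 0.444). Vegfa was at 0.19 and Angpt1, the ligand of Tek, at 0.19.

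On the leukocyte side, 0 of 8 genes that encode partners of the adhesion molecules had an unadjusted p under 0.05, against 10.8% of all probe sets. The integrin genes Itgal and Itgb2 (LFA-1) were at -0.02 and 0.06, and Itga4 (VLA-4) was at 0.03. The selectin ligand gene Selplg was at -0.04, while Cd44 and Itgb1, with the smallest p of this list, were at 0.10 ± 0.06 and 0.07 ± 0.07 (SE). Of 16 genes of TNF receptors and the NF-kB response 13 were lower and 3 higher (median -0.05). Of these 16 genes 12 were dimmer than the median probe set. Among all genes 71.3% of those dimmer were lower, against 35.6% of those at or above that signal. The inhibitor gene Nfkbia, itself a target of NF-kB, gave 6.72, 6.71, 6.60 and 6.32 in the arrays labelled TNF-/- and 6.66, 6.85, 7.44 and 6.97 in those labelled TNF+/+. These overlap, and the highest is TNF+/+ array 3. The difference was -0.39 ± 0.17 (SE; limma, adjusted p = 0.451). Nfkbie, which encodes another inhibitor of NF-kB, was at 0.12 ± 0.06 (SE; limma, unadjusted p = 0.0896), with 3 TNF-/- arrays above all TNF+/+ arrays. The feedback gene Tnfaip3 was at 0.01 and Birc3 at -0.05.

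Pericytes and smooth muscle, the mural neighbours of the endothelium, gave 6 lower and 7 higher of 13 genes with a median of 0.07. Of the 13 genes 0 had an unadjusted p under 0.05, against 10.8% of all probe sets. Their list means ranged from 5.34 to 5.49 under the label TNF-/- and from 5.30 to 5.45 under TNF+/+.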

How the data were processed

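Log2 signals of 35556 probe sets on 8 arrays were taken as the authors deposited them and neither rescaled nor filtered. The log2 scale follows from the values (2.83 to 14.1). GCOS, GCRMA and Partek are named, without versions or roles, per the submitters' processing notes. A genome build was not given in the sources used here. Gene names came from the platform's annotation, in which 21789 probe sets pair with 1 symbol, 1621 with several and 12146 are not listed.

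Groups came from the titles. The test was limma 3.58.1 (R 4.3.3; lmFit and eBayes, two-sided), with Benjamini-Hochberg adjustment over the 35556 probe sets, and SAM was rebuilt with all 70 assignments of the arrays. Errors marked SE are limma's moderated standard errors. On simulated data with 35556 probe sets limma recovered 48% of changes of 0.5 and 88% of changes of 1 on the log2 scale, with 6.85% of calls false. That run had independent noise and 100 changed probe sets of each size. It held none of the differences shared by many probe sets that set single arrays apart, so its shares may not hold for the real arrays.

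The members and lists were chosen with earlier results of these data known, so no list was tested. Values in every array are given for the 2 genes of each role with the smallest p, for genes without overlap, and for Cldn5, Slc2a1, Icam1 and Vcam1; Mfsd2a was added after its values were seen. Of related lists the 2 genes with the smallest p are named, and others were picked after their values were seen. Precision is limited by having 4 arrays a group. Promoter sequences are RefSeq's (GRCm38.p6). Alternatives were other scalings, filters, variance models and weights, the replicate number as a block, and arrays left out. Plots were drawn with matplotlib 3.10.9.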

Additional observations from a re-analysis of the deposited data

Results flagged for a closer look

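Each gene and role mean was searched for 1 array far from its group. This was found in 3 of 80 searches, and chance gives about 1 in 20. Kdr signal in TNF-/- array 3 was 5.72, with the nearest at 5.41. Sele signal in TNF+/+ array 1 was 3.89, with the nearest at 3.75. The mean of the 3 transcription factor genes in TNF-/- array 1 was 4.60, with the nearest at 4.82.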

How the results depend on the processing

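The count of members called was 0 of 33 under all alternatives run. The count of probe sets called, 29 by limma, was 53 by SAM, 63 among probe sets restricted to those with 1 symbol, 0 without TNF+/+ arrays 3 and 4, 0 with the replicate number as a block, and 1 (without TNF+/+ array 3) to 20 with 1 array left out. The 6 members at an unadjusted p under 0.05 were 3 without dim probe sets (8 members left out), 3 without TNF+/+ arrays 3 and 4 and 3 to 6 with 1 array left out. The 3 members without overlap were 8 without TNF+/+ arrays 3 and 4, and 3 to 7 with 1 array left out. Without TNF+/+ arrays 3 and 4 the role means differed by 0.030 for receptors, 0.007 for other markers, 0.086 for junction genes (-0.008 with all arrays) and 0.008 for all members (-0.057 with all arrays), each with the opposite sign, and without dim probe sets the adhesion difference was 0.274, that of Vcam1 alone; no transcription factor gene was then left.

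Of 33 members 21 kept their direction under every alternative. Reversed without TNF+/+ arrays 3 and 4 were Cldn5 (0.055), Jam2 (0.107), Esam (0.001), Tek (0.043) and Abcb1a (0.042). Jam2 was 0.013 with array weights, and Emcn -0.004 after median centring and -0.014 after quantile normalization. With 1 array left out Cldn5 ran from -0.276 to 0.009, Ocln from -0.106 to 0.039, F11r from -0.042 to 0.118, Jam2 from -0.051 to 0.062, Cdh5 from -0.059 to 0.167, Flt1 from -0.009 to 0.115, Emcn from -0.077 to 0.077, Slc16a1 from -0.016 to 0.109 and Slco1c1 from -0.063 to 0.023. Tfrc kept its sign but ran from -0.281 to -0.025. The cause was not tested. Tnf had an adjusted p of 0.129 with the replicate block and 0.216 without TNF+/+ arrays 3 and 4 (limma), and 0.0321 to 0.114 with 1 array left out.

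Same-numbered arrays deviated together by r = 0.0672 to 0.112 across probe sets. Differently numbered pairs ran from -0.1156 to 0.1015, and most of them were negative. Nothing in the labels ties a number to a shared litter or day, and whether same-numbered arrays share a source was not tested. The counts of members without overlap, lower, or at an unadjusted p under 0.05 were put to these alternatives after the data were seen. As every member had 1 probe set, averaging probe sets changed nothing.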
